A study of Mus musculus with 2 samples.

Results

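Ribosomal protein genes encode the proteins that, together with ribosomal RNA, build the cytoplasmic ribosome. On the arrays used here they were taken as every gene whose name is Rpl or Rps followed by a digit, plus Rplp0, Rplp1, Rplp2 and Rpsa, leaving out the S6 kinase genes (Rps6k) and names marked as pseudogenes. This gave 82 genes of the 27962 gene names on the array, read by 137 probes and 146 of the 43379 spots that are not controls. Of the 82 names, 45 belong to the large subunit, 31 to the small subunit, and 6 carry a suffix: Rpl3l, Rpl22l1, Rpl36al, Rpl7l1, Rps27l and Rps19bp1. The last of these is a protein that binds Rps19 and is not a ribosomal protein, although its name falls under the same rule.

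A ribosome holds a single copy of nearly every one of these proteins, so cells make them in matched amounts. Assembly onto ribosomal RNA takes place for most of them in the nucleolus, before the subunit is exported. Most of their mRNAs start with a C followed by a run of pyrimidines, the 5' terminal oligopyrimidine (TOP) motif, through which the growth-sensing kinase mTOR and the RNA-binding protein Larp1 control how well they are translated. Growing tumour cells carry these transcripts in large amounts, and several of the genes have long served as references in expression studies because their levels vary little. A protein left unassembled can have a second role, as when Rpl5 and Rpl11 bind Mdm2 and so spare p53.

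The data are 2 subcutaneous tumours grown from RMS3, which the labels call a PRMS cell line without spelling the abbreviation out. A male C57BL/6J host received 1000000 cells in 200 µl of PBS for each tumour, which was taken 2 weeks later; the age of the hosts is not given, and the treatment text calls the harvested tumours metastatic while the other labels describe subcutaneous growth. Both tumours carry the same label in every respect but their number, so they form 1 group with no untreated, uninjected or cultured control, and each was hybridised to its own single-colour Agilent array. The tumours come from 1 cell line and hold RNA of host cells as well as of injected cells. A lower value can therefore mean fewer cells of a type or less RNA in each cell, and these cannot be told apart.

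Since each tumour has a single array, no test was possible and no p-value is given; precision is limited by how few arrays there are. A level is the log2 of a spot's processed signal minus the 75th percentile of its own array, which was 995.0 in tumour 1 and 901.9 in tumour 2. A difference is the level in tumour 2 minus that in tumour 1, on the log2 scale, so 1 means 2-fold. Levels of different probes depend on how each probe binds and are not compared with each other. The numbering of the tumours is arbitrary.

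Of all spots that are not controls, 62.3% on array 1 and 66.1% on array 2 were well above background by the scanner software's call. That software also marked 1128 spots of array 1, controls included, but 69 of array 2 as outliers, and 95% of those on array 1 lie in the first 338 of its 532 rows. Unless stated otherwise, the values below come from kept spots, which carry no such flag on either array and lie more than 2 rows or columns away from a flag of array 1 and from 11 spots of array 2 with a high local background. The arrays share a slide and a scan, so neither could be examined as a batch. Within an array, repeat spots of 1 probe that were well above background varied with an SD of 0.23 in tumour 1 and 0.13 in tumour 2, and their differences with an SD of 0.24 (179 probes, 1251 spots). Markers of skeletal muscle, the lineage used to check the cell line, were above background in both tumours for 8 of 9 genes, but the regulator Myf5 was not. Of the 8, Myod1 read -5.24 and -5.59 in tumours 1 and 2, close to the lowest levels called above background (-5.78 and -6.33). Among markers of other cell types, 6 of 8 fibroblast, 6 of 9 macrophage, 8 of 8 endothelial, 4 of 6 erythroid, 2 of 6 keratinocyte and 2 of 7 T cell genes were measured.

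The stretch around the transcription start is shown for 9 of the genes because the TOP motif begins there, and because these genes recur in the results. Sequences come from the RefSeq promoter table of the assembly GRCm38.p6, in which 62 of the 82 genes had an entry. Each runs 5' to 3' on the gene's own strand, from 50 bases before the annotated start to 10 bases from the start on. Where a gene has several starts the first one listed is used. Capitals mark the longest run of at least 5 C or T bases that lies within 20 bases before the start or after it, as far as the window is printed. A run that reaches the end of the window may go on past it. Within such windows Rpl7a had the longest marked run of the 62 genes. Rplp0 was printed 10 times on the array, and Rpl28 and Rps10 had the highest and the lowest difference among the 48 ribosomal protein genes with a mean level over 4.
Rpl7a, chr2:26910757-26910816, plus strand: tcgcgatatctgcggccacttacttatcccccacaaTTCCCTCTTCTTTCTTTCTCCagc
Rplp0, chr5:115559417-115559476, plus strand: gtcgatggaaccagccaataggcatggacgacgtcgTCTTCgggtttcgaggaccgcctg
Rpl28, chr7:4792915-4792974, plus strand: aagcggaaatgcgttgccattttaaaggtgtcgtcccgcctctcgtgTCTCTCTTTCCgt
Rps10, chr17:27635235-27635294, minus strand: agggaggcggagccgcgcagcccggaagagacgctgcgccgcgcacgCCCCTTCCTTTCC

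The remaining windows set paralogs against the ribosomal protein they resemble. Rps27l is the paralog of Rps27 and Rpl22l1 that of Rpl22, while Rpl3l is the form of Rpl3 found in striated muscle.
Rps27, chr3:90213639-90213698, minus strand: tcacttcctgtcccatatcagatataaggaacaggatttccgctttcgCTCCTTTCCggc
Rps27l, chr9:66946036-66946095, plus strand: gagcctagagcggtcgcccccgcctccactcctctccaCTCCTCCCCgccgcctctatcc
Rpl22, chr4:152325676-152325735, plus strand: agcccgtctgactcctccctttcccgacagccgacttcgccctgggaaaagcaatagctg
Rpl22l1, chr3:28805458-28805517, plus strand: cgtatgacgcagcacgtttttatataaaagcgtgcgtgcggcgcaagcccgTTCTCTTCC
Rpl3l, chr17:24727776-24727835, plus strand: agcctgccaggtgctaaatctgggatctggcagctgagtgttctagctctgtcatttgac
The longest marked run spanned 21 bases in Rpl7a, 13 in Rps10, 11 in Rpl28, 9 in each of Rps27, Rps27l and Rpl22l1, and 5 in Rplp0. The runs of Rps10 and Rpl22l1 reach the end of the window and may be longer. No run of 5 is marked in the windows of Rpl22 or Rpl3l, which says only that these letters are absent from the printed bases around the start that was used.

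Across the 62 promoters, a run of at least 8 C or T bases within 20 bases of the start on the sense strand was found in 27 (43.5%), against 15.9% of all 27025 promoters in the table and 15.5% of the 17492 of protein-coding genes. A C followed by at least 4 C or T bases exactly at the annotated start was found in 12 (19.4%), against 2.49% of all promoters. Other motifs were searched on both strands of the whole 300 bases. CCGGAAG, the core bound by Ets family factors, was present in 24 of 62 (38.7%) and in 9.12% of all promoters (11.9% of protein-coding ones). GGGCGG, the GC box, was present in 61.3% and 35.9% (46.3% of protein-coding ones), and AAGATGG, the core bound by Yy1, in 14.5% and 6.48%. TATAAA, the TATA box, was present in 9.68% and 14.2%. The matches describe the letters and do not show binding or use. Matches of different motifs can overlap, since CCGGAAG ends with the letters AAG with which AAGATGG starts.

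Every ribosomal protein gene with a kept spot was above background in both tumours. Of the 82 genes, 65 had a kept spot, and all 65 were detected on both arrays, against 61.3% of the 22250 genes with a kept spot. They were 37 large-subunit genes, 24 small-subunit genes and 4 with a suffix. Of the other 17 genes, 8 had only flagged spots (among them Rpl3, Rpl14, Rpl24, Rpl36al, Rpl38, Rpl39 and Rps15) and 9 had unflagged spots only close to a flag (Rpl3l, Rpl10a, Rpl18, Rpl4, Rps12, Rps20, Rps26, Rps27a and Rps29). With all unflagged spots, 73 of 74 genes were detected on both arrays. The exception was Rpl3l, whose probe was not well above background in either tumour. The flagged Rpl3 probe read 6.67 and 6.75 in tumours 1 and 2.

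The probes were bright but not saturated. No spot of these genes was saturated, and the brightest, of Rps18, reached 61.0% of the saturation value on array 1 and 56.6% on array 2. The median level over the 65 genes was 6.68 in tumour 1 and 6.54 in tumour 2.

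The levels were close to each other in the tumours. Over the 65 genes the median difference was 0.00 with an interquartile range of 0.22, against a median of -0.01 and an interquartile range of 0.55 over all 13647 genes. The difference was within the 0.24 SD of repeat spots for 49 of 65 genes (75.4%), against 44.8% of all genes. Of all 13647 genes, 6611 were higher in tumour 2. Of the 65 genes, 33 were higher in tumour 2 and 32 in tumour 1, a split that depends on scaling: with quantile scaling 18 were higher in tumour 2, with loess scaling 21, and on the deposited scale, which has no adjustment between arrays, 11. The large-subunit genes had a median of -0.01 (37 genes) and the small-subunit genes of 0.06 (24 genes), and the 4 genes with a suffix of -0.07. The small-subunit median turned its sign with quantile scaling (-0.07), loess scaling (-0.04) and on the deposited scale (-0.08).

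**Figure D1:**
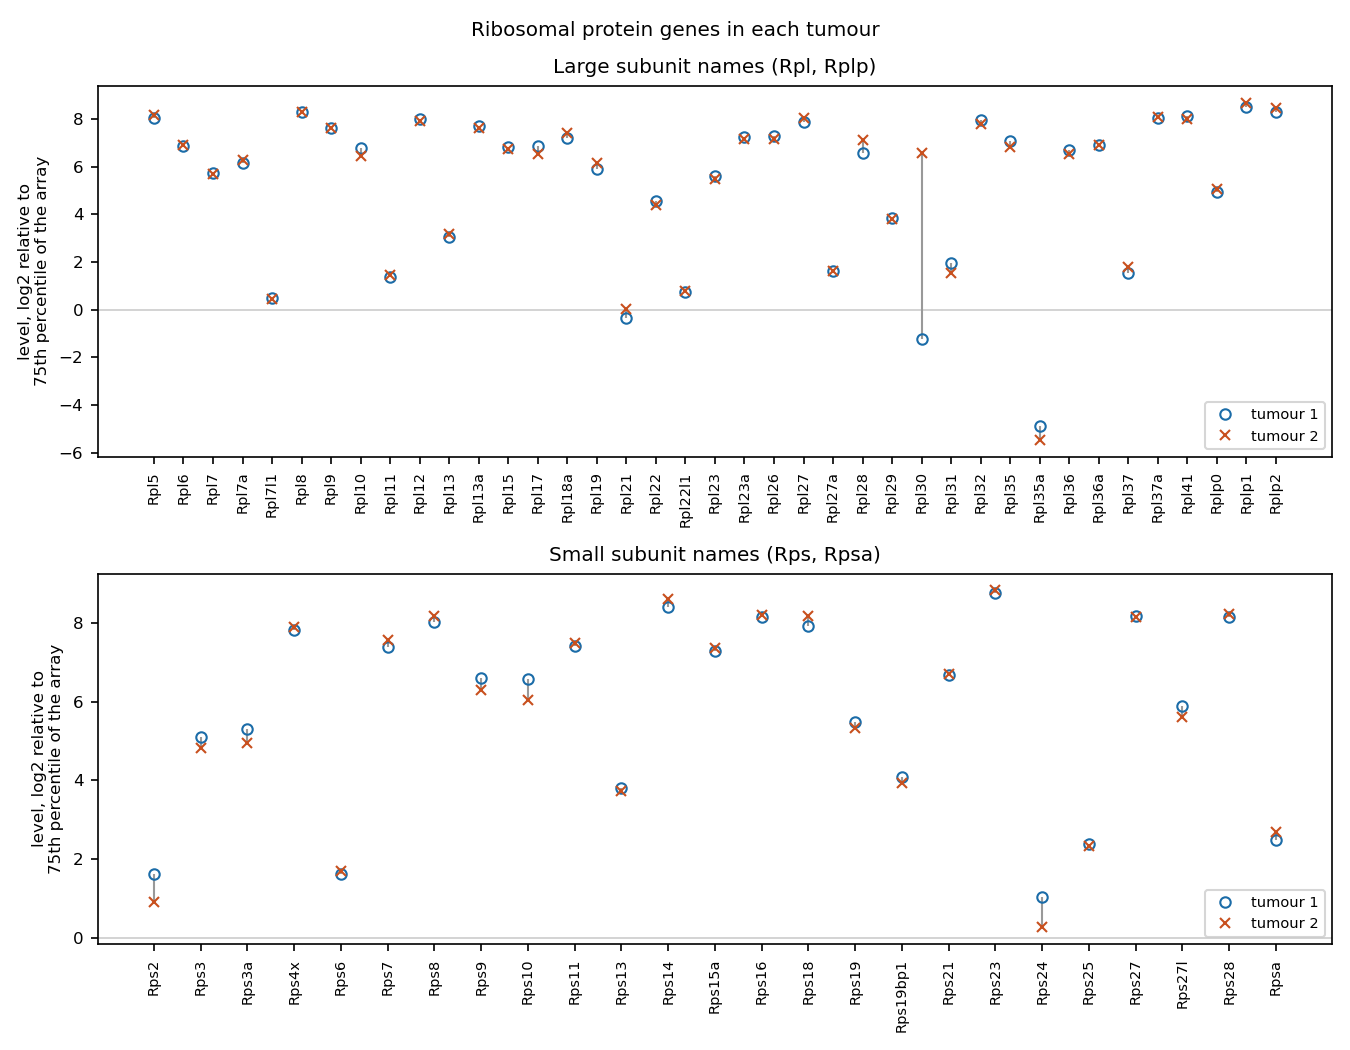
Level of 64 of the 65 measured ribosomal protein genes in tumour 1 (open circles) and tumour 2 (crosses), as log2 signal relative to the array's 75th percentile, joined by a line; genes with several probes are drawn at the median of their probes in each tumour. The symbols of most genes lie close together, and Rpl30 stands apart, at -1.21 in tumour 1 and 6.59 in tumour 2.

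A 2-fold difference was found in 1 of the 65 genes. Rpl30 was at least 2-fold higher in tumour 2, a call made for 2.56% of all genes, and none of the 65 was at least 2-fold higher in tumour 1, a call made for 3.82% of all genes. At 1.5-fold, in either direction, Rpl30 and Rps2 were called, 2 of 65, against 20.3% of all genes. These shares are not matched on brightness, and bright probes differ less. Among genes with a mean level over 4, 0 of 48 ribosomal protein genes differed by 1.5-fold, against 4.57% of all 787 genes in that range. The SD of the differences in that range was 0.20 for the 48 genes and 0.30 for all 787, with medians of 0.00 and 0.06. Brightness was still not matched there, with a median level of 7.22 for the 48 genes and 4.95 for the 787. Rpl30 lay outside this range, with a mean level of 2.69 that its low value in tumour 1 pulled down.

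**Figure D2:**
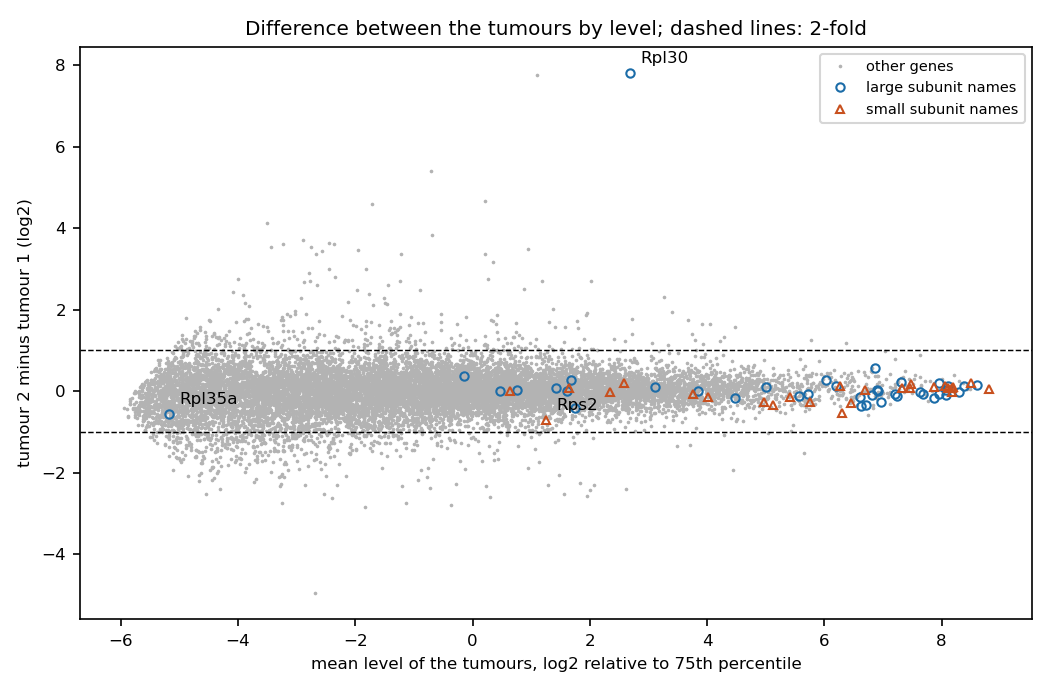
Difference between the tumours (tumour 2 minus tumour 1, log2) against the mean level of the tumours for all 13647 genes (grey) and the 65 ribosomal protein genes (blue circles, large subunit; orange triangles, small subunit). The dashed lines mark 2-fold; most ribosomal protein genes lie in the bright range at the right, close to 0, with Rpl30 at 7.80 and Rps2 at -0.71.

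Rpl30, a large-subunit protein, had 1 probe and 1 spot. It read -1.21 in tumour 1 and 6.59 in tumour 2, which differ by 7.80, and the processed signals behind these were 430.0 and 87098. This spot carried no flag and was kept. Its surroundings were low in tumour 1 too: of 64 unflagged spots within 5 rows and columns that were well above background in tumour 2, 54 were at least 2-fold higher in tumour 2, with a median difference of 3.82. Within 3 rows and columns this held for 25 of 28 spots, with a median of 4.88. Around the other 104 kept spots of ribosomal protein genes, the median difference of neighbours chosen in the same way, within 5 rows and columns, lay between -0.16 and 0.28. When neighbours had to be kept and well above background on both arrays, Rpl30 had 5, with a median of 1.45, and the other spots' medians lay between -0.22 and 0.17. When spots within 5 rows and columns of a flag were left out, Rpl30 had no value and none of the remaining 50 genes was 2-fold apart. Without Rpl30, the SD of the differences over the 64 genes was 0.22 in place of 1.00. Because its value and that of its neighbours moved together, the difference of Rpl30 is a value of this spot, and what part the tumours had in it was not tested.

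Flagged spots were set apart and are described here with the values they gave. Of their 146 spots 20 were flagged (13.7%), 19 of them on array 1, against 2.49% of all spots. Bright spots were flagged more often in general: with a level on array 2 over 4, 16.8% of the spots of ribosomal protein genes and 15.9% of all spots carried a flag. Among the 19 flagged on array 1, tumour 2 was higher by 2-fold or more at 9 and tumour 1 at none, with a median difference of 1.00. The shares over all 1055 spots flagged on array 1 were 53.6% and 0.664%, with a median of 1.09. Of the 103 kept and detected spots, 1 was at least 2-fold higher in each tumour, with a median of 0.02.

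Several genes had both kinds of spot, so that the same gene can be read with and without a flag. Rps28, a small-subunit protein, read 2.68 in tumour 1 and 7.27 in tumour 2 at its flagged spot. Its kept probes read 8.12 and 8.22, and 8.18 and 8.26, so the difference of 4.59 at the flagged spot was not seen at either of them. For Rps2, which lies near the entry of the mRNA channel, the flagged spot had a difference of 3.16, and the kept probe of the same RefSeq mRNA a difference of 0.20. Rpl29 had differences of 1.39 and 3.26 at 2 flagged spots and of -0.07 and 0.05 at 2 kept ones. Rps21 differed by 1.43 at a flagged spot for a cDNA clone and by 0.00 and 0.03 at kept ones for its RefSeq mRNA. Rpl19 was alike at both, with 0.25 flagged and 0.27 kept.

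**Figure D3:**
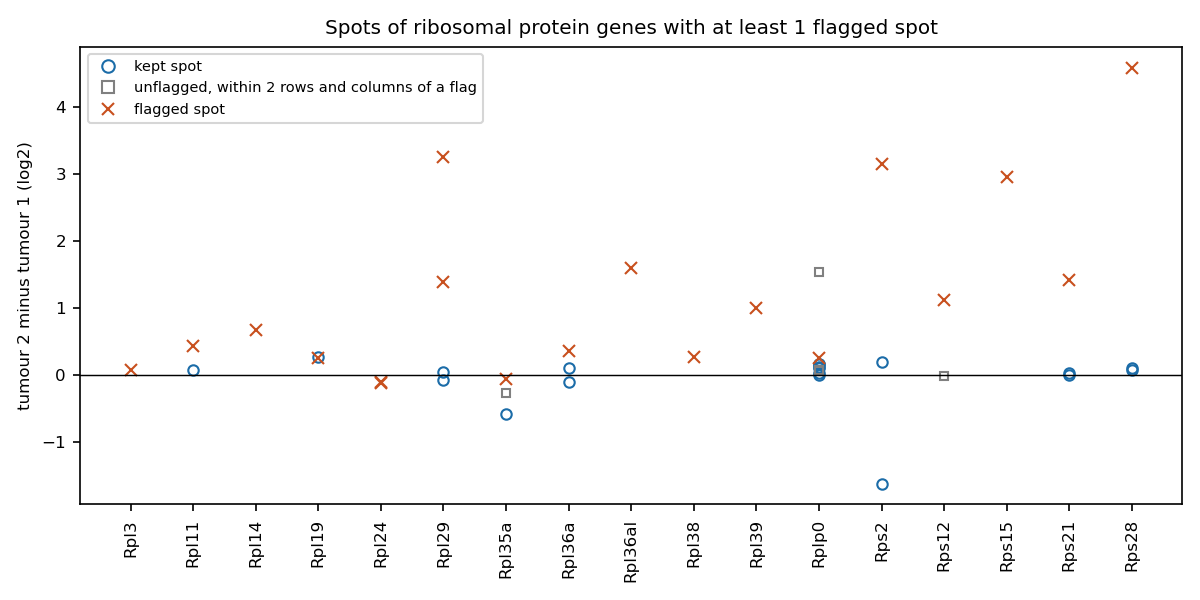
Difference between the tumours (tumour 2 minus tumour 1, log2) at every spot of 17 of the 18 ribosomal protein genes with at least 1 flagged spot: flagged spots as crosses, unflagged spots close to a flag as squares, kept spots as circles. Flagged spots reach 4.59 (Rps28), while kept spots of the same genes lie close to 0, apart from dim probes of Rps2 at -1.62 and Rpl35a at -0.57.

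For genes with flagged spots alone there is no such check. Rps15 had a difference of 2.97, Rpl36al of 1.61, Rpl39 of 1.00, Rpl14 of 0.68, Rpl38 of 0.27, and Rpl24 of -0.10 and -0.12 at its 2 probes. These values are not read as differences between the tumours. Among genes with unflagged spots close to a flag, the differences were 0.02 for Rpl10a, 0.12 for Rpl18, 0.32 for Rpl4, -0.19 for Rps26, 0.13 for Rps27a and 0.09 for Rps29. Rps20 differed by 0.13 at its RefSeq mRNA probe and by -0.38 at a clone probe. Apart from Rpl4 and the latter probe, these values were within the repeat-spot SD.

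The stalk proteins form the flexible arm of the large subunit that recruits translation factors. Rplp0, its base, had 10 spots, of which 6 were kept. At these it read 4.95 ± 0.08 in tumour 1 and 5.06 ± 0.05 in tumour 2 (SD over 6 repeat spots of 1 array each, not over tumours), with a mean difference of 0.10 ± 0.07. Over all 10 spots the level in tumour 1 was 4.81 ± 0.45 and ranged from 3.54 to 5.09, while in tumour 2 it was 5.06 ± 0.05. The lowest value came from a spot that was itself unflagged but close to a flag, where the difference was 1.54. Rplp1 read 8.53 and 8.69, and Rplp2 read 8.32 and 8.45, in tumours 1 and 2. The stalk genes differed by 0.10 to 0.16, and these signs depend on scaling and filter: with all unflagged spots Rplp1 stood at -0.04 and Rplp2 at -0.06, and on the deposited scale Rplp0 stood at -0.04 and Rplp2 at -0.01. Rpsa, a small-subunit protein also known as the laminin receptor precursor, differed by 0.24 and 0.16 at its 2 probes.

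**Figure D4:**
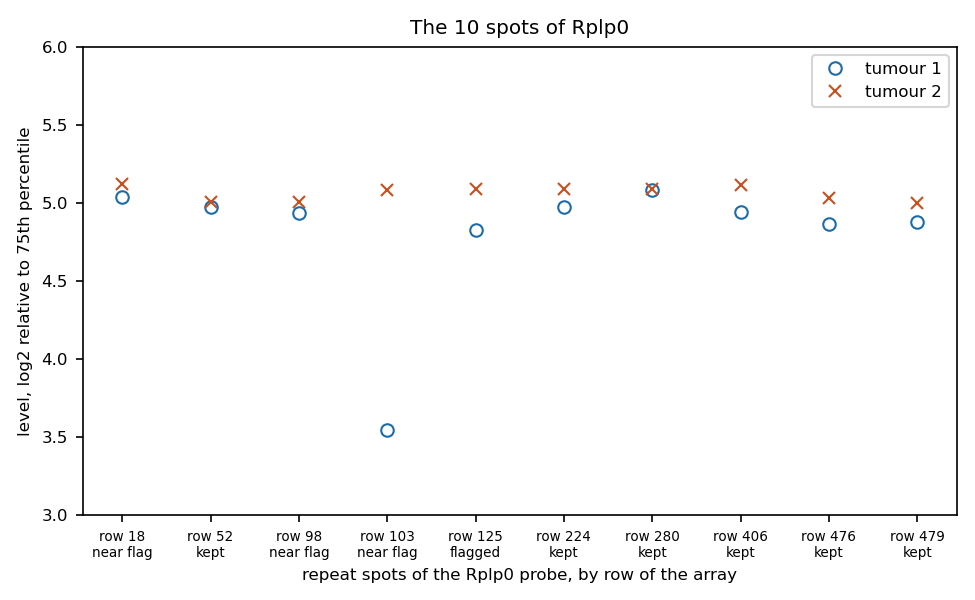
Level (log2 relative to the array's 75th percentile) of Rplp0 at its 10 repeat spots in tumour 1 (open circles) and tumour 2 (crosses), ordered by array row and marked as kept, flagged or close to a flag. The values of tumour 2 reach 5.12 and lie close together, and tumour 1 drops to 3.54 at 1 spot close to a flag.

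Apart from Rpl30, the highest differences were those of Rpl28, Rpl21, Rpl19 and Rpl37, all of the large subunit. Rpl28 read 6.58 in tumour 1 and 7.13 in tumour 2, a 1.47-fold difference at a single probe of high signal. Leaving out 5 rows and columns around flags removed this spot. Rpl19 differed by 0.27 at 1 kept probe. For Rpl21 and Rpl37 the probes did not go together: Rpl21 differed by -0.04 at its RefSeq mRNA probe and by 0.79 at the other, and Rpl37 by -0.21 at a bright probe (6.81 and 6.60) and by 0.74 at a dim one (-3.74 and -3.00).

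The lowest differences were those of Rps2, Rpl35a, Rps10, Rpl31 and Rpl10. The median for Rps2, -0.71, joins a probe at 7.44 and 7.64 in tumours 1 and 2 with a probe for a cDNA clone at -4.23 and -5.85. The latter is close to the lowest levels called above background (-5.78 and -6.33), and when spots within 5 rows and columns of a flag were left out Rps2 stood at 0.21. The only kept probe of Rpl35a was as dim, at -4.89 and -5.46, while its other unflagged probe, close to a flag, differed by -0.26. Rps10 is a clearer case, with 1 bright probe at 6.57 in tumour 1 and 6.04 in tumour 2, a 1.44-fold lower level in tumour 2. Its spot, too, was removed under that wider limit. Rpl31 was lower in tumour 2 at both probes, by 0.16 and 0.65 on the log2 scale.

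Probes of 1 gene give a check that repeat spots do not. For 29 genes at least 2 probes were used, and the median gap between the highest and lowest difference was 0.18. It was under 0.5 for 22 of the 29 and at least 1 for Rps2 alone. For 14 of the 29 all probes had the same sign, and for 2 all probes were lower in tumour 2 by at least 0.2. These were Rpl10, with -0.33 and -0.38, and Rpl17, with -0.34 and -0.36; Rpl17 was noticed after its values were seen. Rpl10, a protein that joins the large subunit late in its maturation, read 6.58 and 7.01 in tumour 1 and 6.25 and 6.62 in tumour 2. No gene had all probes higher in tumour 2 by at least 0.2. The same shares over all genes with several probes were not computed. These counts are therefore not read as particular to ribosomal protein genes. Rpl7a, which had the longest pyrimidine run in the printed promoter windows, was higher in tumour 2 at all 3 probes, by 0.24, 0.12 and 0.06. Its median difference of 0.12 was within the repeat-spot SD. The sign depended on filter and scaling, at -0.07 with all unflagged spots and -0.02 on the deposited scale. A link between the run and the difference was not tested.

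The spread was widest among dim probes and probes for other accessions. The 80 probes with a RefSeq mRNA accession, without Rpl30, had a median difference of -0.01 and an SD of 0.22, and the 17 with another accession a median of 0.02 and an SD of 0.52. By level, the 19 probes with a mean level up to 2 had an SD of 0.55, the 17 from 2 to 6 an SD of 0.18, the 43 from 6 to 8 an SD of 0.21, and the 18 over 8 an SD of 0.08. The median in this last range was 0.09. Ribosomal protein genes have many near-identical pseudogene copies, and the signal of a probe that binds transcripts of such copies cannot be told apart from that of the gene.

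The paralogs were compared with their partners within each tumour pair only. Rps27l, a paralog induced by p53, read 5.88 and 5.62, a difference of -0.26, while Rps27 read 8.18 and 8.17. Rpl22 differed by -0.13 and -0.21 at its 2 probes, and Rpl22l1, which can stand in for it, by 0.31 at the RefSeq mRNA probe and by -0.24 at a dim clone probe. Rpl7l1 had probes at 0.24 and -0.25, and Rpl7 at -0.06 and -0.07. Rpl36a had kept probes at 0.11 and -0.10. Rps19bp1 differed by -0.12 and -0.16. Only Rps27l, both probes of Rpl22l1 and 1 probe of Rpl7l1 exceeded the repeat-spot SD in size, by little.

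The proteins of the 5S particle and its checkpoint differed within the repeat-spot SD at their kept probes. Rpl5 read 8.06 and 8.17, and Rpl23, another Mdm2-binding protein, differed by -0.15 and -0.07. Rpl11 read 1.38 and 1.46 at its 1 kept probe, for a cDNA clone, while its flagged RefSeq mRNA probe read 7.69 and 8.12, a difference of 0.44. Other genes mutated in Diamond-Blackfan anaemia, an inherited failure of red cell production, ranged more widely, at RefSeq mRNA probes and at clone probes. Rps7 differed by 0.17 at 1 probe, and Rps14, linked to another marrow failure, by 0.20. Rps19 differed by -0.33 at its RefSeq mRNA probe and by 0.02 at a clone probe. Rps24 differed by 0.02 at its RefSeq mRNA probe (7.52 and 7.53) and by -0.76 and 0.00 at clone probes. Rps10 and Rpl35a are described above with the lowest differences.

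Genes often used as references differed by at most 0.25 in size at the kept bright probes given here. Rpl4, measured only close to a flag, differed by 0.32. Rpl13a read 7.71 and 7.64 and Rpl32 7.96 and 7.79. Rps18 differed by 0.11 and 0.25 at its RefSeq mRNA probes and by -0.44 at a dim clone probe. Rps6, the substrate of S6 kinase, differed by -0.07 at its RefSeq mRNA probe and by 0.20 at a dim clone probe. For Rps4x, the X-linked form of its protein, the RefSeq mRNA probe differed by 0.09, and a second probe was well above background in tumour 2 alone, at least 2.09-fold higher there against the lowest level called above background on array 1.

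Other genes of the ribosome pathway were read from lists taken from general knowledge. Mitochondrial ribosomal proteins, which build the separate ribosome of that organelle, had 51 measured genes of 75, a median difference of -0.02 and none past 2-fold. Mrpl33, near background, was lowest at -0.95, and Mrpl9 highest at 0.62. Of 49 ribosome biogenesis genes 37 were measured, with a median of 0.07 and none past 2-fold. Of the 37, 24 were higher in tumour 2, against 6611 of all 13647 genes. On the deposited scale the median of this list was -0.08. The nucleolar proteins Fbl, the rRNA methylase, and Ncl differed by 0.33 and 0.42, and Npm1 by 0.01. The assembly factors Bysl (0.85) and Nle1 (0.81) were the highest and Tsr2, the chaperone of Rps26, the lowest (-0.77).

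Translation factors and other genes with TOP mRNAs had 23 measured of 27, a median of 0.02, and 1 past 2-fold in tumour 2, a call made for 2.56% of all genes. That gene was Eef2, the elongation factor that moves the ribosome along the mRNA, at 1.01, just past the limit. It fell short of 2-fold on other scales and filters, for example at 0.87 on the deposited scale and 0.81 with all unflagged spots. Eif5a, another elongation factor, differed by 0.94 and Eif4g1, the initiation scaffold, by 0.67. Fau, whose product is cut to release a ribosomal protein, differed by 0.16. Of the mTOR and S6 kinase genes 16 of 19 were measured, with a median of 0.21 and none past 2-fold. This list joins genes of the mTOR pathway with all Rps6k names it read, and does not hold Mtor, Rptor or Rictor. Of the 16, 11 were higher in tumour 2, against 6611 of all 13647 genes. The median of the mTOR and S6 kinase genes was 0.06 with all unflagged spots and on the deposited scale. It was 0.42 when 5 rows and columns around flags were left out. Larp1 differed by 0.62, Akt1s1, an inhibitor of mTOR, by 0.60, and Eif4ebp1, which holds back translation initiation until mTOR phosphorylates it, by 0.49. Rps6kb1, the main S6 kinase, differed by -0.36.

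**Figure D5:**
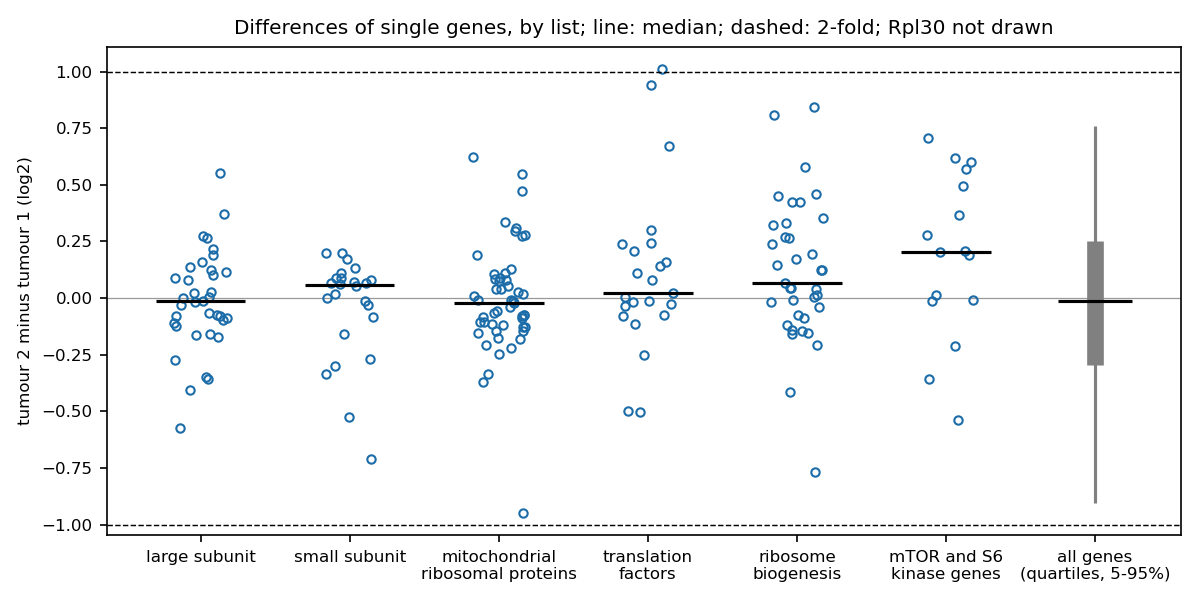
Difference between the tumours (tumour 2 minus tumour 1, log2) of single genes in the large and small subunit groups (names without a suffix) and the other pathway lists, with the median as a line, and quartiles (thick bar) with the range from 5% to 95% (thin line) of all 13647 genes at the right; Rpl30 is left out. The medians drawn run from -0.02 (mitochondrial ribosomal proteins) to 0.21 (mTOR and S6 kinase genes), and Eef2 is the only point past the dashed 2-fold lines.

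Markers of several cell types a tumour can hold differed by more than most ribosomal protein genes. The median difference was 0.50 over 8 muscle markers, -0.78 over 6 fibroblast markers, 0.94 over 4 erythroid markers and 3.59 over 2 keratinocyte markers, of which the basal keratins Krt5 and Krt14 differed by 3.55 and 3.64. It was -0.04 over 6 macrophage, -0.16 over 8 endothelial and -0.09 over 2 T cell markers. These differences between the tumours stood beside a median of 0.00 for the ribosomal protein genes, and the part of such cells in any single gene's value was not tested. The markers were also dimmer. Their median level was -1.98 for muscle, 1.41 for fibroblast, 1.39 for erythroid and -2.94 for keratinocyte markers, against 6.62 for the ribosomal protein genes. Krt5 in tumour 1, at -5.21, was close to the lowest level called above background there (-5.78). Dim probes spread more, and the part of brightness in this contrast was not tested.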

How the data were processed

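Total RNA of 2 tumours was labelled with Cy3 and hybridised to 1 single-colour array each. The deposited intensity values are processed signals that, per the file headers, Agilent's Feature Extraction 9.1.3.1 wrote (the submitters' processing notes give version 8); the deposited value table held the same values at all 45018 spots. Genes were named as in the file of tumour 2; accessions of 115 of 137 probes matched RefSeq, where Rps3a alone has another symbol. Spots were filtered as described above. Detection of a probe required 50% or more of its kept spots to be well above background. A gene's value is the median over its unsaturated probes detected on both arrays, taken separately for levels and for differences, so with several probes the difference need not equal the difference of the levels. The members, lists, filters and alternatives were chosen with earlier results of these data known.

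Most named ribosomal protein genes were fixed by a rule: genes at least 2-fold apart, the 5 highest and the 5 lowest differences, stalk genes and Rpsa. The rule also took suffixed names with their partners, checkpoint, anaemia and reference genes, genes not measured, and genes with discordant probes or repeat spots. Outside it fall Rps28, Rpl29 and Rps21, described for their flagged spots, Rpl7a, described for its promoter run, and Rpl17. Alternatives were other distances from flags, the lower rows of the array, normexp (offset 50), quantile and loess scaling (span 0.3), the detected probes' median as scale, other detection filters, the brightest probe, and leaving out a tumour. Leaving out Rpl30, using RefSeq mRNA probes only and the 1.5-fold call were added after the data were seen. Python 3.11.15 (numpy 2.4.6, pandas 2.3.3) and limma 3.58.1 in R 4.3.3 were used. The probe and gene summaries were tested on simulated data built from array 2 alone. Normexp, quantile and loess scaling were not part of that test. The labels call the tumours separate samples. No protein or probe sequences were used here, and some single genes are not reported here, although counts and medians include them.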

Additional observations from a re-analysis of the deposited data

How the results depend on the processing

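The median difference of the ribosomal protein genes lay between -0.20 and 0.04 under every alternative but normexp fitted on all spots, where 11 spots of array 2 with a high local background entered the fit. There it was -0.90 (large subunit -0.90, small subunit -0.89), and 20 of these genes were 2-fold higher in tumour 1 and 2 in tumour 2. Over all 13647 genes this fit gave a median of 0.69 and an interquartile range of 2.41. The share of all genes past 2-fold under it is not given, so these counts are not read as particular to ribosomal protein genes. In the same setting 10 ribosomal protein genes had probes 2-fold apart, and their median level was 6.10. The list medians were -0.25 for ribosome biogenesis, -0.62 for translation factors, 0.57 for mTOR and S6 kinase genes and -0.57 for mitochondrial ribosomal proteins. With normexp fitted without those spots the members' median was -0.01. With all unflagged spots the small-subunit median was -0.18, while the median of all genes also was -0.18. No ribosomal protein gene was 2-fold higher in tumour 2 when 5 rows and columns around flags were left out, in the lower rows alone, or without Rpl30 (0 in each), and 2 were with no detection filter. Under those first 3 settings the SD of the differences was 0.20, 0.19 and 0.22 in place of 1.00. Each of the 3 leaves out the only spot of Rpl30, the only gene called, so they are not separate checks of that call. Only 33 genes were detected in the lower rows. Genes with probes 2-fold apart numbered 0 with 5 rows and columns left out, in the lower rows, with the refitted normexp, in the brighter 50% of probes and with RefSeq mRNA probes only, and 2 with quantile scaling, loess scaling or no filter. The median level was 7.52 on the detected probes' median as scale, 6.76 in the brighter probes, 7.24 with the brightest probe, and 6.91 with RefSeq mRNA probes. Leaving out a tumour returns the other tumour's own median level (6.54 to 6.68) and the same 65 genes by construction, so it is no check. Of single genes, 64 of 65 moved by more than the repeat-spot SD with normexp fitted on all spots, and at most 7 under any other setting. Signs turned for 25 genes with all unflagged spots, 22 on the deposited scale, 15 with quantile and 12 with loess scaling, all of them within that SD before. Beyond it, Rps2 turned from -0.71 to 0.21 (5 rows and columns left out) and 0.93 (normexp on all spots). With normexp on all spots Rpl35a also turned from -0.57 to 2.85, Rpl28 from 0.55 to -0.52 and Rpl19 from 0.27 to -0.76. Rpl37 turned from 0.27 to -0.21 in the lower rows alone, with the brightest probe and in the brighter probes. With the brightest probe or the brighter probes Rps2 stood at 0.20. No paired analysis was possible because the 2 tumours form 1 group. Signal over background limits the dim probes, where the spread was widest, and 1 array per tumour leaves tumour and array effects that cannot be told apart.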
